A study of Mus musculus with 4 samples.

Results

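The nuclear receptors of adipocyte lipid control and 1 of their coactivators were followed on 4 arrays of differentiating 3T3-L1 cells. The members are the peroxisome proliferator-activated receptors Pparg, Ppara and Ppard, the retinoid X receptors Rxra and Rxrb, the liver X receptors Nr1h2 and Nr1h3, the retinoic acid receptor Rarg, the orphan receptor Nr2f2 (COUP-TFII) and the coactivator Ppargc1a (PGC-1α). They were chosen by name, and each non-control probe that carries 1 of these names was used. This gave 10 of 19213 named genes, with 18 of 41174 probes and 36 of 43379 spots. 3T3-L1 is a mouse line of preadipocytes. On day 0 the cells received an initiation medium with 10 μg/ml insulin, 1 μM dexamethasone and 0.5 μM IBMX in all 4 conditions. By the study's methods the vehicle DMSO was at 0.1% in every condition. The control had DMSO alone, the other 3 also had 100 μg/ml bilberry extract, 100 nM delphinidin or 100 nM cyanidin, and RNA was taken on day 2. Each condition was measured once, on 1 Agilent Whole Mouse Genome array with 1 dye. Since n = 1 per condition, no test across samples could be made, no p-value is given, and precision is limited by this number of arrays.

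These receptors are transcription factors whose activity is set by small lipophilic ligands. PPARs, LXRs and RARs bind DNA as partners of an RXR, usually at repeats of the hexamer AGGTCA, and PPARγ is the receptor that preadipocytes need to become adipocytes. PPARα and PPARδ are best known for fatty acid oxidation, LXRs for sterol export and lipogenesis, and RARs for the response to retinoic acid, while Nr2f2 is an inhibitor of adipogenesis and PGC-1α raises the activity of several receptors on genes of mitochondria.

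The labels call the cells adipocytes. Of 8 adipocyte markers, 7 were well above background on every array by the scanner software's own test, and so were 7 of 7 markers of preadipocytes or fibroblasts. No more than 2 of 4 macrophage markers, 0 of 4 endothelial markers, 1 of 3 epithelial markers and 1 of 3 skeletal muscle markers were well above background on any array. The summed scaled signal of the adipocyte list was 391 with DMSO, 269.7 under bilberry, 429 under delphinidin and 471 under cyanidin. That of the preadipocyte or fibroblast list was 398, 388, 368 and 320.0, in the same order. Fabp4, a fatty acid carrier named here after its values were seen, made up 265 of the adipocyte sum with DMSO and 137 under bilberry (a ratio of -0.95), and without it the sums were 127, 132, 197 and 213. Of the 7 adipocyte markers measured, 4 were above 0 under bilberry, 5 under delphinidin and 6 under cyanidin, with median ratios of 0.02, 0.35 and 0.65. Of the 7 preadipocyte or fibroblast markers, 2 were above 0 under bilberry, 3 under delphinidin and 0 under cyanidin, with medians of -0.12, -0.15 and -0.26. Of these, also named after their values were seen, Ly6a was at -2.13, -2.25 and -1.08, and Thy1 was at -1.20, -0.94 and -0.87. The part of these shifts in the members' ratios was not tested. Fewer cells of a type and less RNA per cell cannot be told apart in such sums. The bilberry array was the dimmest, with a 75th percentile of the signal of 576 against 861 for DMSO, 1009 for delphinidin and 1016 for cyanidin. All levels below are log2 of the signal divided by this percentile of the same array, so that 0 is the level of the 75th percentile, and all ratios are differences of these levels. Scaling to the spike-in control RNAs would move every bilberry ratio by -1.53, every delphinidin ratio by 0.26 and every cyanidin ratio by 0.24. The median ratio over the 21443 probes well above background on all 4 arrays was 0.14 under bilberry, -0.03 under delphinidin and -0.01 under cyanidin. The error given with a ratio comes from replicate spots (the member's own for Pparg, otherwise probes of similar signal that were spotted 10 times) and does not include variation between cultures.

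After scaling to the 75th percentile, most member probes were within 2-fold of their DMSO level, but the bilberry count depends on this scaling. The software placed 17 of the 18 probes well above background on each of the 4 arrays, and the Ppara probe on none. With bilberry 1 of the 17 probes was past 2-fold, against 11.1% of all such probes (4.17% higher and 6.95% lower). With spike-in scaling, 14 of the 17 were past 2-fold with bilberry, against 78.3% of all such probes, whose median ratio was then -1.39. With delphinidin the count was 0 of 17, against 2.4% (1.04% higher and 1.36% lower), and with cyanidin it was 1 of 17, against 2.3% (0.49% higher and 1.81% lower). Both calls were the same Rarg probe, which was higher with bilberry and lower with cyanidin. Bilberry gave 13 of 17 ratios above 0, from -0.22 to 1.71 with a median of 0.26. Delphinidin gave 4 of 17 above 0, from -0.89 to 0.31 with a median of -0.27, and cyanidin gave 5 of 17 above 0, from -1.23 to 0.50 with a median of -0.09. With spike-in scaling these medians were -1.27, -0.01 and 0.15, so the side of 0 on which the members lie depends on the scaling while their order within an array does not.

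**Figure D1:**
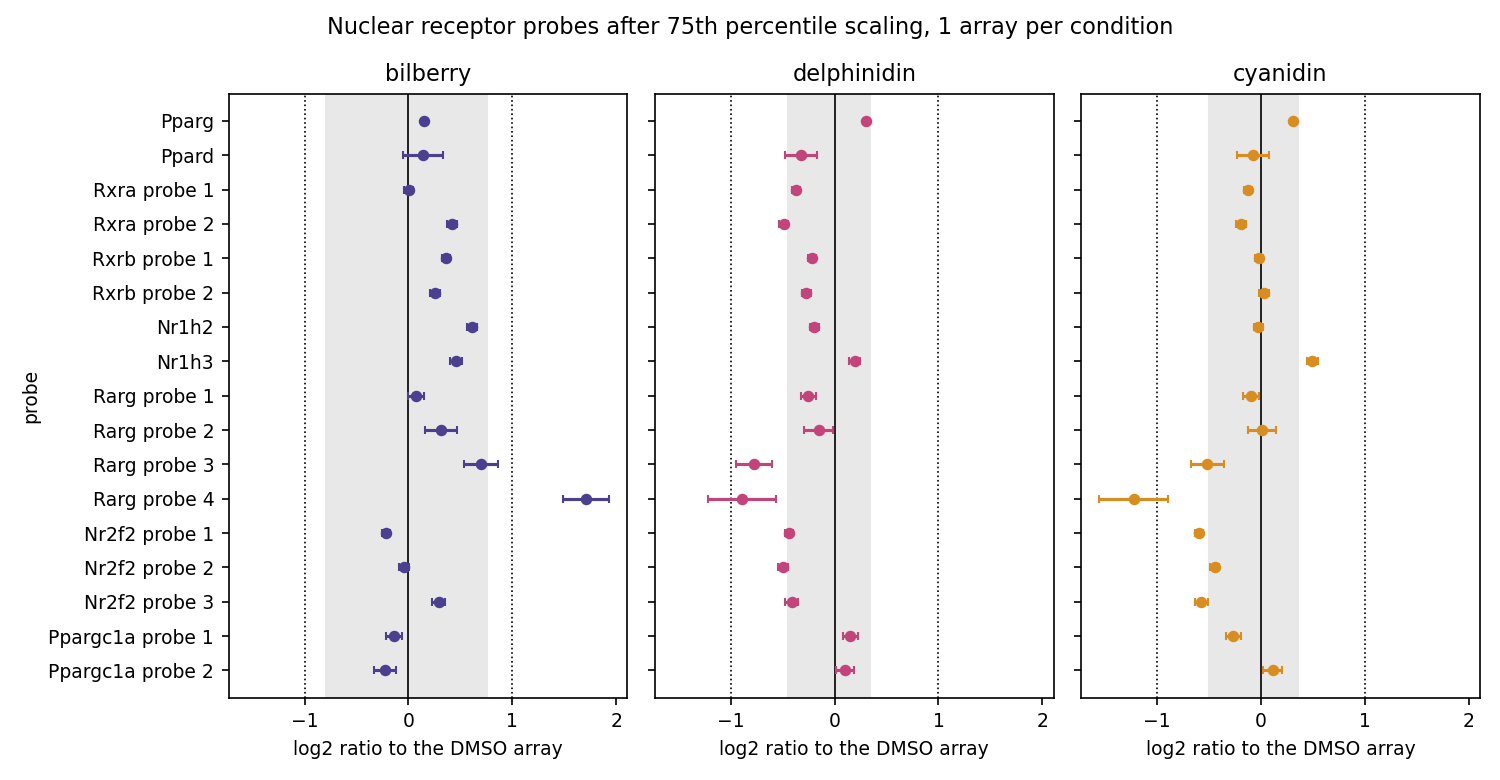
The log2 ratio to the DMSO array (horizontal axis) of the 17 member probes well above background on all 4 arrays (vertical axis), with 1 panel per treatment and 1 array per condition. Bars are the error from replicate spots, the grey band runs from the 10th to the 90th percentile of all probes well above background, and dotted lines mark 2-fold. Only Rarg probe 4 lies beyond 2-fold, at 1.71 with bilberry and at -1.23 with cyanidin.

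Pparg, the receptor required for adipocyte formation, was measured by 1 probe in 10 spots, placed by the files at chr6:115455814-115455873 (mm8, plus strand) and paired with the transcript NM_011146. Its scaled log2 level was 4.00 with DMSO, 4.16 under bilberry, 4.31 under delphinidin and 4.31 under cyanidin. The ratio to DMSO was 0.15 ± 0.013 under bilberry, 0.31 ± 0.014 under delphinidin and 0.31 ± 0.014 under cyanidin. All spots kept on both arrays gave the same sign, 8 of 8 between 0.12 and 0.20 with bilberry, 8 of 8 between 0.28 and 0.38 with delphinidin and 9 of 9 between 0.29 and 0.35 with cyanidin. The spots of an array read the same RNA, so this agreement reflects the precision of the spots. It does not measure the spread between cultures. Among all probes well above background, 98.1% lay at least as far from their median as Pparg did under bilberry, 26.3% under delphinidin and 31.0% under cyanidin. The bilberry value turned below 0 with quantile normalization (-0.10), normexp background correction (-0.46), spike-in scaling (-1.38) and subtraction of nearby probes (-0.25). The refitted normexp left it at 0.10. Restricted to nearby probes well above background, chosen after seeing the data, the subtraction left it above 0. The values of delphinidin and cyanidin stayed above 0 under every alternative tried.

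**Figure D2:**
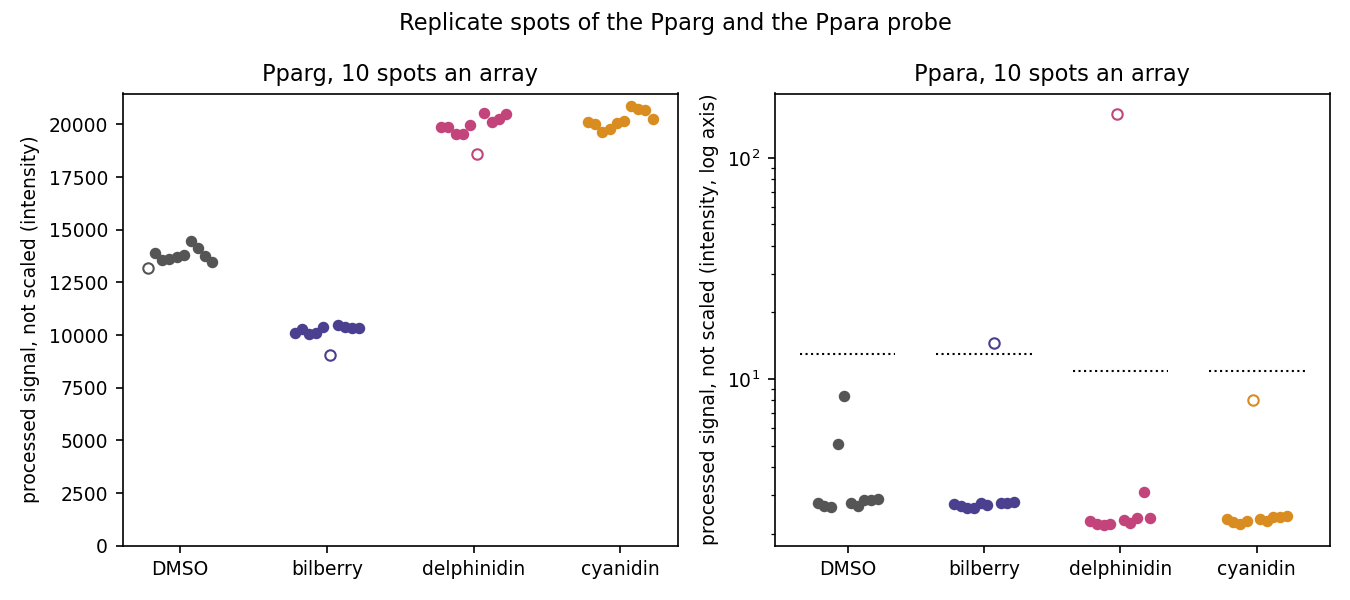
Processed signal of each of the 10 spots of the Pparg probe (left, linear axis from 0) and of the Ppara probe (right, log axis) on the 4 arrays, before scaling. Filled points were kept and open points were marked as outliers by the software, and dotted lines give the lowest signal well above background on that array. The mean of the kept Pparg spots was 13814 with DMSO, 10269 under bilberry, 20024 under delphinidin and 20222 under cyanidin, and all kept Ppara spots lay under the line.

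Pparg has several starts, and its probe does not tell which of them the RNA came from. The RefSeq promoter table (build GRCm38.p6) gives 3 windows of 300 bases for it, each from 250 bases before to 50 after a start, and these are shown because they differ in the motifs they hold. Window 1 is chr6:115360894-115361193, window 2 is chr6:115362099-115362398 and window 3 is chr6:115421816-115422115, all on the plus strand. Capitals mark matches, on either strand, to the hexamer AGGTCA, the TATA box TATAAA, the GC box GGGCGG and the C/EBP motif TTGCNNAA.
Pparg window 1: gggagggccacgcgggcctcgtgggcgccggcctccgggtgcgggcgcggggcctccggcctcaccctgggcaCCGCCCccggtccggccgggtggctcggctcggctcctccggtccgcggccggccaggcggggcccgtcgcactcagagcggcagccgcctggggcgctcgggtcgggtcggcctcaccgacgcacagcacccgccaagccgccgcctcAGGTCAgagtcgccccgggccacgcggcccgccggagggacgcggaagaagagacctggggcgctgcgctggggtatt
Pparg window 2: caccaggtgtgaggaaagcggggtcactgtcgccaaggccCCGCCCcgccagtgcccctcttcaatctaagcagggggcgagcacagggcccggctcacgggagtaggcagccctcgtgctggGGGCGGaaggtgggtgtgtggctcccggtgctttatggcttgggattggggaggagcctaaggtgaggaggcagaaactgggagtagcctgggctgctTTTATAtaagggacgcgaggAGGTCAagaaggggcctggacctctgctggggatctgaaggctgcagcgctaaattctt
Pparg window 3: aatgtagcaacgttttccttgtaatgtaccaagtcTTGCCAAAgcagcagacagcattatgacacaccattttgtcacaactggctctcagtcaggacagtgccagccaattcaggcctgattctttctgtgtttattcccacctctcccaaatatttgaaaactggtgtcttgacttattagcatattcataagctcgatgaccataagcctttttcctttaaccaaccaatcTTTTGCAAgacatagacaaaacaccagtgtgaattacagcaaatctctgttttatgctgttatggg
Windows 1 and 2 each hold 1 hexamer, with 1 and 2 GC boxes, and window 2 also holds a TATA box. Window 3 holds none of these and has 2 matches to the C/EBP motif, the binding sequence of the C/EBP factors that precede Pparg in adipogenesis. Of all 32851 promoter windows in the table, 16.3% hold the hexamer, 13.6% the TATA box, 35.7% the GC box and 10.8% the C/EBP motif. All 10 members matched the table, with 16 windows, of which 4 hold the hexamer, 1 the TATA box, 8 the GC box and 2 the C/EBP motif. None of the 16 holds the direct repeats AGGTCANAGGTCA, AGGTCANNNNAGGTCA or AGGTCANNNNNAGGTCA, which occur in 0.0396%, 0.0152% and 0.00913% of all windows. A match describes these letters only.

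Ppara, the receptor known from fatty acid oxidation in liver, stayed under the mark for well above background on all 4 arrays. Its probe (chr15:85629291-85629350 on mm8, 10 spots) gave kept signals from 2.63 to 8.41 with DMSO, from 2.62 to 2.79 with bilberry, from 2.18 to 3.10 with delphinidin and from 2.21 to 2.41 with cyanidin. The lowest signal well above background on these arrays was 13.0, 13.0, 10.9 and 10.9, so no fold is given. Ppard, the broadly expressed form, was well above background at low signals of 56.1 with DMSO, 41.5 under bilberry, 52.6 under delphinidin and 63.0 under cyanidin (chr17:28027240-28027299 on mm8). After scaling, its ratio was 0.14 ± 0.19 under bilberry, -0.32 ± 0.16 under delphinidin and -0.07 ± 0.16 under cyanidin. The bilberry and cyanidin values of Ppard are within the spot error.

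The retinoid X receptors, which pair with PPARs, LXRs and RARs, were each measured by 2 probes, and delphinidin gave the lowest level at all 4 after scaling to the 75th percentile. With spike-in scaling bilberry was the lowest instead, at -1.11 to -1.53 relative to DMSO, and normexp put bilberry at Rxra probe 1 at -0.64. Subtraction of nearby probes also put bilberry below delphinidin at Rxra probe 1, at -0.35. Restricted to nearby probes well above background, the subtraction gave bilberry -0.17 there. Rxra probe 1 (chr2:27584900-27584959 on mm8) had log2 levels of 5.63 with DMSO, 5.63 under bilberry, 5.25 under delphinidin and 5.50 under cyanidin. Rxra probe 2 (chr2:27581805-27581864) had levels of 0.82, 1.24, 0.33 and 0.64 in that order. Relative to DMSO, delphinidin was lower by both Rxra probes, at -0.38 ± 0.039 and -0.49 ± 0.048, and cyanidin was lower by less, at -0.13 ± 0.038 and -0.19 ± 0.046. The probes differed for bilberry, at 0.00 ± 0.039 and 0.42 ± 0.048. Of all probes well above background, 25.0% and 15.2% lay at least as far from their median as the Rxra probes did with delphinidin. The shares were 70.2% and 56.0% with cyanidin and 80.3% and 62.0% with bilberry.

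Rxrb probe 1 (chr17:33648505-33648564 on mm8) had levels of 3.04 with DMSO, 3.40 under bilberry, 2.82 under delphinidin and 3.02 under cyanidin. Rxrb probe 2, whose coordinates chr17:33647199-33647373 span 175 bases and so more than the 60 of the other probe, had levels of 0.61, 0.87, 0.34 and 0.64. At both probes bilberry was highest and delphinidin lowest. Of all probes well above background, 69.3% and 83.1% lay at least as far from their median with bilberry, and 49.8% and 39.9% with delphinidin. Bilberry was at 0.36 ± 0.041 and 0.26 ± 0.049 and delphinidin at -0.22 ± 0.040 and -0.27 ± 0.048, while cyanidin lay within the spot error of DMSO at -0.02 ± 0.039 and 0.03 ± 0.046. With spike-in scaling the delphinidin value of Rxrb probe 1 turned to 0.04, those of both Rxra probes and of Rxrb probe 2 stayed below 0, the cyanidin values of the Rxra probes turned to 0.12 and 0.06, and all 4 bilberry values of the RXR probes were below 0. Normexp turned the bilberry values of the Rxrb probes to -0.23 and -0.03, and its refit left them at 0.30 and 0.21. Subtraction of nearby probes turned that of probe 2 to -0.07. Restricted to nearby probes well above background, the subtraction did not turn it.

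The liver X receptors differed from each other. Nr1h2 (LXRβ, the broadly expressed form, chr7:44417972-44418031 on mm8, minus strand) had levels of 1.78 with DMSO, 2.39 under bilberry, 1.58 under delphinidin and 1.76 under cyanidin. Its ratio was 0.61 ± 0.049 under bilberry, -0.20 ± 0.046 under delphinidin and -0.02 ± 0.046 under cyanidin. Of all probes well above background, 40.5%, 55.0% and 96.4% lay at least as far from their median in these treatments. Nr1h3 (LXRα, found mainly in liver, fat and macrophages, chr2:90985117-90985176, minus strand) had levels of -1.06, -0.60, -0.86 and -0.56. It was the member with the highest ratio under cyanidin, at 0.50 ± 0.053, and it was at 0.46 ± 0.058 with bilberry and 0.19 ± 0.050 with delphinidin. For Nr1h3 the values of delphinidin and cyanidin stayed above 0 under every alternative. Of all probes well above background, 56.8% lay at least as far from the median with bilberry, 43.6% with delphinidin and 14.0% with cyanidin. Spike-in scaling turned both bilberry values, to -0.92 for Nr1h2 and -1.07 for Nr1h3, and turned the delphinidin value of Nr1h2 to 0.07. The cyanidin value of Nr1h2 turned to 0.22 with spike-in scaling and to 0.35 with subtraction of nearby probes. Restricted to nearby probes well above background, the subtraction gave 0.03.

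Rarg, the retinoic acid receptor γ, gave the only calls past 2-fold, and its 4 probes did not move alike. Probes 1 and 2 are paired with the transcript NM_011244, at chr15:102063912-102063971 and, over a span of 2641 bases, chr15:102064224-102066864 (mm8, minus strand). Probes 3 and 4 lie at chr15:102070014-102070073 and chr15:102070108-102070167 and are paired with M32070, which the files describe as the start of the mRNA of the γ3 form. Probe 1 had signals of 232 with DMSO, 163 under bilberry, 228 under delphinidin and 257 under cyanidin, and ratios after scaling of 0.07 ± 0.078, -0.25 ± 0.075 and -0.09 ± 0.076. Probe 2 gave 0.31 ± 0.15, -0.15 ± 0.14 and 0.01 ± 0.14. Both were under 2-fold in each treatment with the scaling used here. With bilberry, spike-in scaling turned them to -1.45 and -1.22, and subtraction of nearby probes turned them to -0.26 and -0.12. Restricted to nearby probes well above background, the subtraction turned probe 1 to -0.05 and did not turn probe 2. Normexp gave 0.82 and 1.72 while its refit gave 0.14 and 0.43.

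Probe 3 of Rarg had signals of 57.8 with DMSO, 62.8 under bilberry, 39.5 under delphinidin and 47.7 under cyanidin, and ratios of 0.70 ± 0.16, -0.78 ± 0.17 and -0.52 ± 0.16. Probe 4 had signals of 25.3, 55.3, 16.0 and 12.8 and ratios of 1.71 ± 0.22, -0.89 ± 0.33 and -1.23 ± 0.33. Both probes of the γ3 start were thus higher with bilberry and lower with delphinidin and cyanidin, each by more than its spot error, although spike-in scaling turned the bilberry value of probe 3 to -0.83. A probe past 2-fold with bilberry and past 2-fold the other way with an anthocyanidin was found 7 times among the 21443, which is 0.0326%. Probe 4 was dim, and its signals with delphinidin and cyanidin were little above the 10.9 that was the lowest signal well above background there. Among the 1422 probes of similar signal, 2.67% lay at least as far from their median as probe 4 under bilberry. The shares were 8.93% under delphinidin and 4.43% under cyanidin. The medians of those probes were 0.34, -0.15 and -0.21 in the same order, on the same sides of DMSO as probe 4. For probe 3 the shares were 36.7%, 14.8% and 40.3% of 2042 probes of similar signal. The cyanidin call was lost with quantile normalization (-0.98), spike-in scaling (-0.98), subtraction of nearby probes (-0.81) and normexp (-0.46, or -0.47 after a refit), and the bilberry call was lost with spike-in scaling (0.18) and the refitted normexp (0.96). No alternative turned the sign of either.

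**Figure D3:**
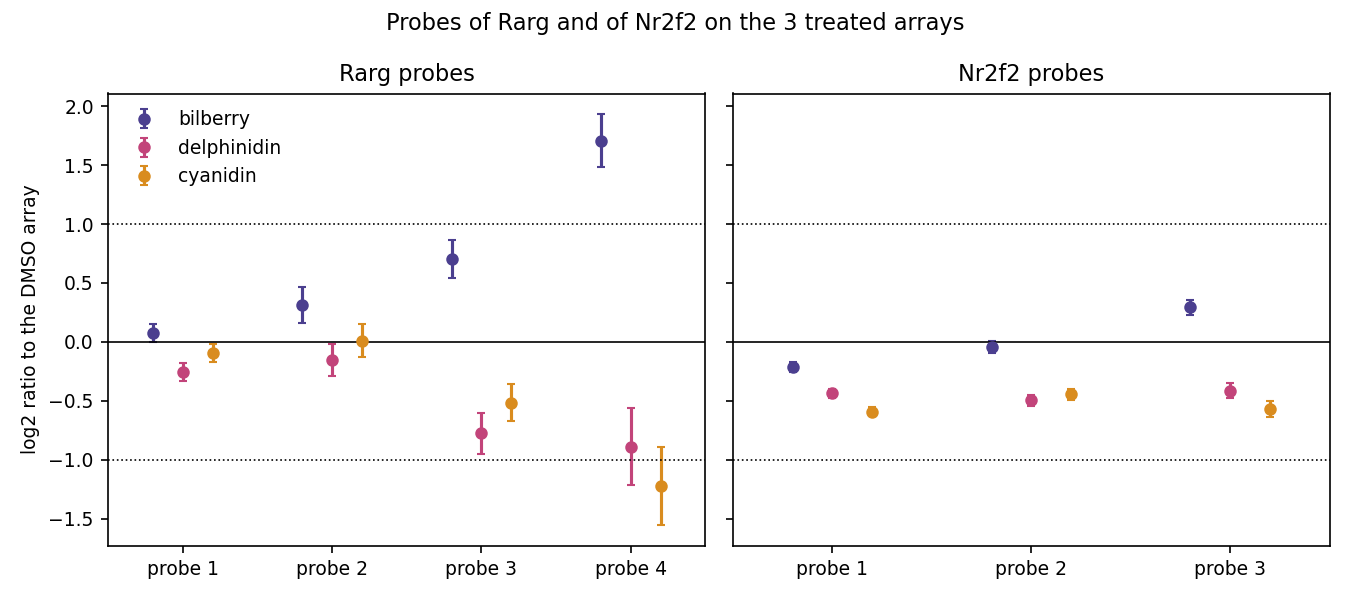
The log2 ratio to the DMSO array (vertical axis) of the 4 Rarg probes (left) and the 3 Nr2f2 probes (right) for bilberry, delphinidin and cyanidin, 1 array each, with the error from replicate spots. Dotted lines mark 2-fold. Rarg probes 3 and 4 lie above 0 with bilberry and below 0 with both anthocyanidins, and the 3 Nr2f2 probes lie between -0.41 and -0.59 with both anthocyanidins.

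RefSeq gives 2 promoter windows for Rarg, shown because the probes of its different transcripts did not move alike. Window 1 is chr15:102257473-102257772 and window 2 is chr15:102246451-102246750 (GRCm38.p6, minus strand), with the same motifs in capitals. Which window belongs to the γ3 form is not given in the table.
Rarg window 1: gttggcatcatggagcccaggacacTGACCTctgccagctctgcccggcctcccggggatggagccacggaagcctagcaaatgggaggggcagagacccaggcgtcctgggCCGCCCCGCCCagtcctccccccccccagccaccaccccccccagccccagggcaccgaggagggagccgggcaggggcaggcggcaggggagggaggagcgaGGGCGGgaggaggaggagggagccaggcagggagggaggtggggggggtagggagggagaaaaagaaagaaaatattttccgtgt
Rarg window 2: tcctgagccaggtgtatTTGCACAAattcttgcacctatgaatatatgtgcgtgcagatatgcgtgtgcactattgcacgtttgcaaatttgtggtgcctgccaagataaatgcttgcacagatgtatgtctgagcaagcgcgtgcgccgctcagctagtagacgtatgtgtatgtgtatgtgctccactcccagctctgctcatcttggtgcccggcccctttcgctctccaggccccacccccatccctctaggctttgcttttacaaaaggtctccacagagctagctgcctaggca
Window 1 holds 1 hexamer and 3 GC boxes, and 70.0% of its bases are G or C. Window 2 holds 1 match to the C/EBP motif and no GC box, and 51.7% of its bases are G or C. The median G and C content over all windows of the table was 52.7%.

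Nr2f2, an orphan receptor that restrains adipogenesis in preadipocytes, was lower with both anthocyanidins at all 3 of its probes. Probe 1 (NM_009697, chr7:70227002-70227061 on mm8, minus strand) had levels of 3.67 with DMSO, 3.46 under bilberry, 3.24 under delphinidin and 3.08 under cyanidin. Probe 2 (X76653, chr7:70228074-70228133) had 1.79, 1.75, 1.30 and 1.35, and probe 3 (AK012573, chr7:70239252-70239311) had -1.45, -1.16, -1.87 and -2.03. In ratios to DMSO the probes gave -0.44 ± 0.039, -0.50 ± 0.046 and -0.41 ± 0.063 with delphinidin. With cyanidin they gave -0.59 ± 0.039, -0.45 ± 0.045 and -0.57 ± 0.066. Of all probes well above background, 8.08% were at -0.4 or lower with both anthocyanidins, a threshold chosen after the values were seen, and no alternative turned any of these 6 values above 0. With bilberry the 3 probes differed, at -0.22 ± 0.042, -0.04 ± 0.050 and 0.29 ± 0.063. Its close relative Nr2f1, named here after its values were seen, was at -0.53 ± 0.22 with delphinidin, -0.51 ± 0.20 with cyanidin and -0.02 ± 0.22 with bilberry. Nr2f1 was dim, with signals of 37.2 for DMSO, 24.6 for bilberry, 30.3 for delphinidin and 30.8 for cyanidin.

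Ppargc1a, the coactivator PGC-1α, was measured by 2 probes that differed for 1 of the treatments. Probe 1 (NM_008904, chr5:51745937-51745996 on mm8, minus strand) had levels of -1.79 with DMSO, -1.93 under bilberry, -1.64 under delphinidin and -2.05 under cyanidin. Probe 2 (AK032149, chr5:51743906-51743965) had -2.56, -2.79, -2.46 and -2.45. Ratios were -0.14 ± 0.076 and -0.22 ± 0.10 with bilberry and 0.15 ± 0.070 and 0.10 ± 0.088 with delphinidin. With cyanidin they lay on both sides of 0, at -0.26 ± 0.075 for probe 1 and 0.11 ± 0.088 for probe 2, so no direction can be given with cyanidin. Normexp turned both bilberry values, to 0.71 and 1.15, while its refit gave -0.04 and 0.0029.

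Delphinidin and cyanidin, which differ by a hydroxyl group on the B ring that only delphinidin carries, were given at the same dose and time and can be set directly against each other over the 17 probes. Bilberry extract had its own dose scale and was left out of this comparison. The member level with delphinidin was below that with cyanidin at 13 of 17 probes, with a median difference of -0.17 against -0.02 over all probes well above background. With normexp and with its refit, 12 probes were lower and the median was -0.096. With spike-in scaling and with subtraction of nearby probes, 11 were lower, with medians of -0.15 and -0.18. Past 2-fold were 0 of the 17, against 0.802% of all probes (0.499% higher and 0.303% lower). At Ppard, the 4 RXR probes, Nr1h2 and Nr1h3 the delphinidin level was lower at 7 of 7 probes, a grouping made after the values were seen. The smallest of these differences was -0.17 ± 0.037 at Nr1h2, and the largest was -0.30 ± 0.040 at Rxra probe 2. These 7 stayed below 0 under every alternative tried, but they were grouped by this sign. Spike-in scaling moves delphinidin and cyanidin nearly alike, by 0.26 and 0.24, so this stability adds no support. The differences were -0.25 ± 0.13 for Ppard, -0.25 ± 0.033 for Rxra probe 1, -0.20 ± 0.036 and -0.30 ± 0.040 for the Rxrb probes and -0.30 ± 0.047 for Nr1h3. Each was past its spot error, and between 18.0% and 42.0% of all probes well above background lay at least as far from the median as each of the 7. Pparg was at -0.00 ± 0.013. The Rarg probes gave -0.16 ± 0.071, -0.17 ± 0.12, -0.26 ± 0.15 and 0.34 ± 0.38 from probe 1 to probe 4. The Nr2f2 probes gave 0.16 ± 0.035, -0.05 ± 0.038 and 0.16 ± 0.070. Ppargc1a gave 0.41 ± 0.071 at probe 1 and -0.01 ± 0.079 at probe 2. With 1 array each, whether such differences exceed the spread between cultures could not be tested.

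**Figure D4:**
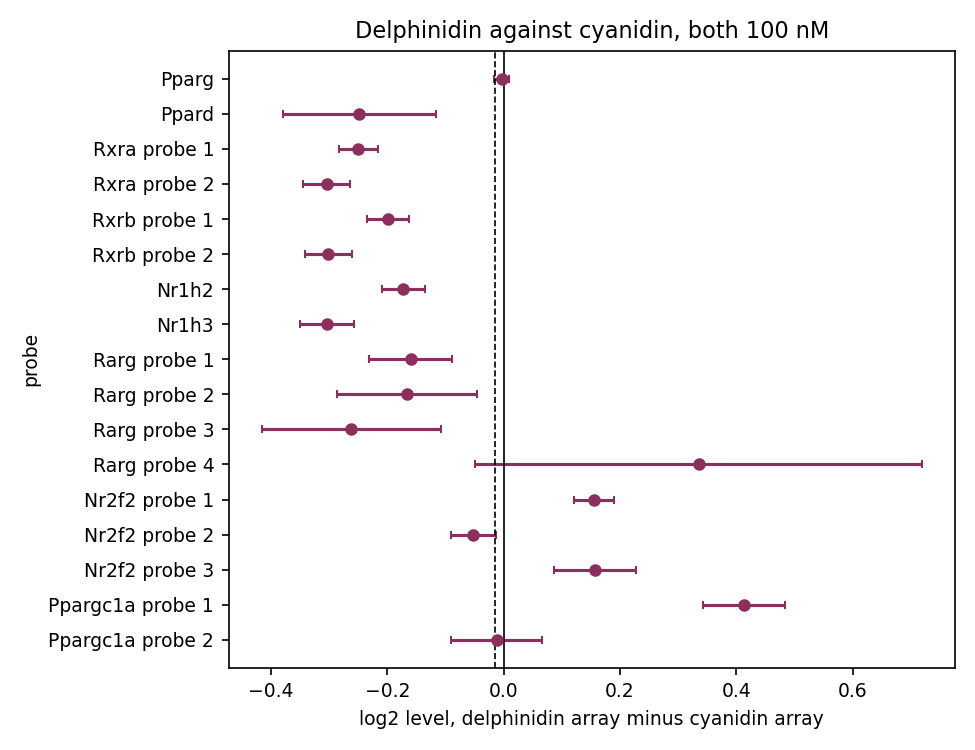
Difference of the scaled log2 levels, delphinidin array minus cyanidin array (horizontal axis), for the 17 member probes (vertical axis), with the error from replicate spots. The dashed line is the median of all probes well above background, -0.02. The probes of Ppard, Rxra, Rxrb, Nr1h2 and Nr1h3 lie between -0.30 and -0.17, and Pparg lies at 0.

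Genes around the members were grouped into 8 lists, and each gene was read from its brightest probe with a value on all arrays. Among genes well above background on at least 1 of the 2 arrays, 11.9% were past 2-fold with bilberry (4.83% higher and 7.11% lower). The share was 4.68% with delphinidin (1.79% higher and 2.89% lower) and 3.78% with cyanidin (1.26% higher and 2.52% lower). Over all genes detected on every array the median ratio was 0.17 under bilberry, -0.01 under delphinidin and 0.02 under cyanidin. The bilberry ratios of all lists would be lower by 1.53 with spike-in scaling. This turns the higher values of Cfd (to -0.73), Cited2, E2f1, Tfam, Cebpa, Cebpb, Cebpd and Klf5 named below under 0. It leaves those of Dhrs3 and Stra6 at 0.02. A fold given as a bound belongs to a gene that passed this filter only through the 1 array on which it was high, so it had to differ, and such calls (Cyp4a10, Lrat, Nr1i3 and, with bilberry, Nr1h4) are a description. Without bounds, among genes well above background on both arrays, the shares of all genes past 2-fold were 10.5% under bilberry, 3.3% under delphinidin and 2.28% under cyanidin. Normexp took the calls of Adipoq, Cited2, E2f1 and Tfam with bilberry, of Cfd, Nr1h4 and Klf15 with delphinidin and of Acot2 with cyanidin under 2-fold without turning their sign. With bilberry, quantile normalization took Cited2 to 0.97 and Ep300 to -0.98, and scaling to the median of well-detected probes took Ep300 to -0.98. The refitted normexp took Adipoq with bilberry to -0.97, and spike-in scaling took Klf15 with delphinidin to -0.9998.

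The targets of PPARγ did not move as 1 group with bilberry, where 0 of 21 were past 2-fold higher and 3 were lower, with a median of 0.10. The 3 were Slc2a4, the insulin-responsive glucose transporter, at -1.54 ± 0.087, Retn, the adipokine resistin, at -1.08 ± 0.047, and Adipoq, the adipokine adiponectin, at -1.07 ± 0.059. In the 2 anthocyanidin arrays the same 3 genes ran from -0.61 to 0.23. Normexp turned the bilberry value of Slc2a4 to 0.08, and its refit gave -1.03. Cfd, the serine protease adipsin, was the only target past 2-fold with the anthocyanidins, at 1.15 ± 0.065 with delphinidin and 1.75 ± 0.063 with cyanidin, and it was at 0.80 ± 0.073 with bilberry. The list's median was 0.17 with delphinidin, where 16 of 21 genes were above 0, and 0.32 with cyanidin, where 18 of 21 were above 0.

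Of the targets of PPARα and PPARδ that were well above background on both arrays, 0 of 16 were past 2-fold with bilberry, 0 of 18 with delphinidin and 1 of 17, which was higher, with cyanidin. Over the 16 targets detected on all 4 arrays, the medians were 0.20, -0.02 and 0.13. Acot2, a mitochondrial acyl-CoA thioesterase, was at 1.04 ± 0.13 with cyanidin, with signals of 59.4 for DMSO, 24.7 for bilberry, 84.5 for delphinidin and 143.8 for cyanidin. Cyp4a10, a fatty acid hydroxylase and a classic PPARα target, had 1 spot with a signal of 401 on the delphinidin array, at least 26.3-fold higher than DMSO, while it was not well above background on the other arrays. This probe was read as the brightest only because of that spot. Another probe of Cyp4a10, detected on every array at 84.2 to 99.3, was at -0.18 with delphinidin, and yet another had signals of 2.61 for DMSO, 13.6 for bilberry, 13.8 for delphinidin and 3.54 for cyanidin, so the probes of this gene disagree.

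Among LXR targets 2 of 11 were past 2-fold with bilberry, both lower, and 0 of 11 with delphinidin or cyanidin. Both are sterol transporters, Abcg4 at -1.85 ± 0.17 and Abcg1 at -1.32 ± 0.091. Abcg1 was also at -0.81 ± 0.073 with delphinidin and -0.94 ± 0.073 with cyanidin, and Abcg4 was at -0.53 ± 0.098 and -0.11 ± 0.089. Normexp turned both bilberry values, to 0.90 for Abcg4 and 0.43 for Abcg1, and its refit gave -0.73 and -0.77. The medians over the 10 LXR targets detected on every array were 0.30 under bilberry, -0.03 under delphinidin and 0.21 under cyanidin.

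Among RAR targets and genes that handle retinoids, Dhrs3 was past 2-fold higher in all 3 treatments, as were 0.205% of all probes well above background on every array. The 3 ratios share the single DMSO array. Dhrs3 codes for a retinaldehyde reductase that retinoic acid induces. Its signals were 1097 with DMSO, 2144 under bilberry, 3561 under delphinidin and 2906 under cyanidin, and its ratios were 1.55 ± 0.048, 1.47 ± 0.045 and 1.17 ± 0.045. A second probe of Dhrs3 gave 1.41, 1.39 and 1.13. Stra6, the membrane receptor for retinol-binding protein, was at 1.55 ± 0.050 with bilberry but at 0.11 ± 0.050 and 0.16 ± 0.051 with delphinidin and cyanidin. Rarres2, which codes for the adipokine chemerin, was at -1.16 ± 0.047 under bilberry, -0.77 ± 0.047 under delphinidin and -0.50 ± 0.045 under cyanidin, and its other probe was under 2-fold at -0.90, -0.46 and -0.23. Lrat, the enzyme that esterifies retinol, had a signal of 43.4 in 1 spot on the delphinidin array only, at least 2.85-fold higher than DMSO, and its other probe did not reach that mark. Of the 11 genes well above background on both arrays, 2 were higher and 1 lower with bilberry, and 1 was higher in each of the other treatments, with medians of 0.28, 0.05 and 0.16.

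The other nuclear receptors had medians of -0.14 under bilberry, -0.19 under delphinidin and -0.29 under cyanidin, over the 16 detected on all 4 arrays. Of 20 such receptors, 0 were past 2-fold higher in any treatment. With delphinidin 3 were lower: Nr1h4 (FXR, the bile acid receptor) at -1.79 ± 0.30, Nr1d1 (REV-ERBα, a clock receptor) at -1.44 ± 0.072, and Nr1i3 (CAR), at least 2.24-fold lower as a bound. With bilberry Nr1h4 was at least 2.59-fold lower, and with cyanidin Nr1i3 was at least 2.25-fold lower. Without bounds, 0 of 16 were past 2-fold with bilberry, 2 of 19 with delphinidin and 0 of 18 with cyanidin. Nr1h4 and Nr1i3 were dim, with DMSO signals of 50.1 and 20.8. Of Nr1d1's other probes, 1 was at -0.64 and 1 at -0.06 with delphinidin.

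Of 23 coregulators 1 was past 2-fold higher and 1 lower with bilberry and 0 with delphinidin or cyanidin, with medians of 0.12, 0.03 and 0.02. Cited2, a CBP/p300-binding regulator, was at 1.17 ± 0.041 with bilberry, and its other probes were at 0.54 to 0.83. Ep300, the acetyltransferase p300, was at -1.01 ± 0.18 with bilberry, and normexp turned it to 1.57 while its refit gave -0.18. A brighter probe of Ep300, marked by the software on every array but that of cyanidin and so without a ratio, was at -0.38 with bilberry when marked spots were kept. Of 19 targets of PGC-1α, 1 was higher and 1 lower with bilberry and 0 with delphinidin or cyanidin. Over the 18 targets of PGC-1α detected on every array, the medians were 0.30, 0.08 and 0.12. Tfam, the mitochondrial transcription factor, was at 1.38 ± 0.041 with bilberry by its brightest probe, while its other probes gave 0.10 and 0.06. Elovl3, a fatty acid elongase, was at -1.16 ± 0.20 with bilberry, and normexp turned it to 1.48 while its refit gave -0.25.

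**Figure D5:**
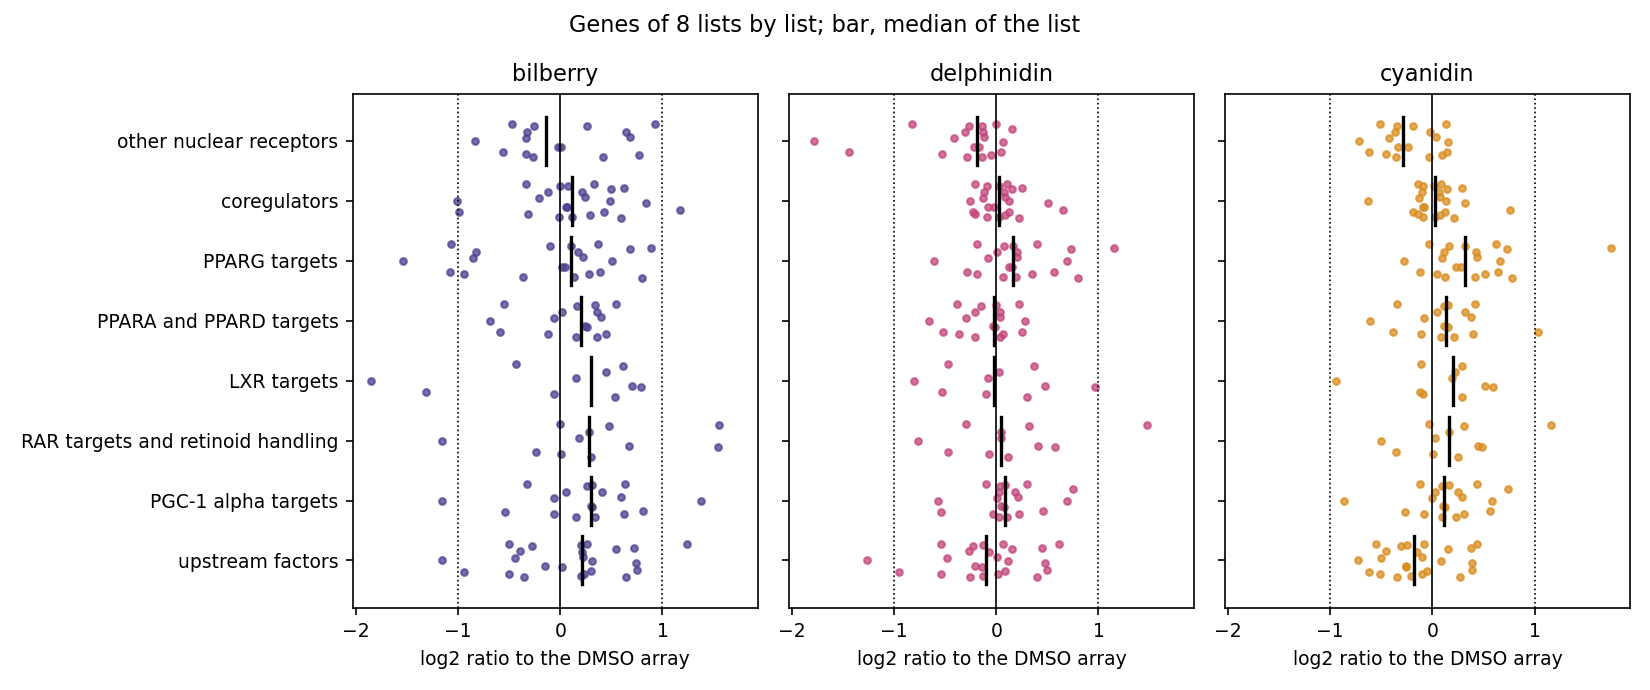
The log2 ratio to the DMSO array (horizontal axis) of the genes of the 8 lists (vertical axis), with 1 panel per treatment. Each point is a gene well above background on both arrays, black bars are the list medians over genes detected on all 4 arrays, and dotted lines mark 2-fold. The medians of the other nuclear receptors lie below 0 in all 3 panels, and those of the PPARG targets run from 0.10 to 0.32.

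The factors that act upstream of Pparg in adipogenesis had 1 of 24 past 2-fold higher and 1 lower with bilberry, 1 lower with delphinidin and 0 with cyanidin, with medians of 0.21, -0.10 and -0.18. Klf15, a Krüppel-like factor that promotes adipogenesis, was at -1.16 ± 0.23 under bilberry, -1.26 ± 0.17 under delphinidin and -0.72 ± 0.15 under cyanidin, and normexp turned its bilberry value to 1.64 while its refit gave -0.07. The other probe of Klf15, dimmer with a DMSO signal of 22.6, was past 2-fold with cyanidin at -1.15. With bilberry and delphinidin that probe was not well above background. E2f1, a cell cycle factor, was at 1.24 ± 0.050 under bilberry, 0.61 ± 0.047 under delphinidin and 0.38 ± 0.045 under cyanidin, and its other probe, with 10 spots, was under 2-fold at 0.82, 0.52 and 0.35. Cebpb, an early C/EBP factor, was at 0.54 ± 0.036, -0.07 ± 0.040 and -0.31 ± 0.037, and Cebpd, its early partner, at 0.30 ± 0.038, -0.23 ± 0.042 and -0.26 ± 0.037. Klf5, which acts with them on Pparg, was at 0.72 ± 0.049, 0.48 ± 0.046 and 0.39 ± 0.045. Cebpa, the later C/EBP factor, was at 0.50 ± 0.045, 0.20 ± 0.042 and 0.32 ± 0.041. With bilberry, normexp turned Cebpb to -0.12, Cebpd to -0.30 and Cebpa to -0.04, its refit kept all 3 above 0, and quantile normalization turned Cebpd to -0.03. Spike-in scaling turned Cebpb to -0.99, Cebpd to -1.23, Cebpa to -1.02 and Klf5 to -0.81. Srebf1, the SREBP1 gene, had no value because the software marked its spot on the DMSO array. With marked spots kept it was at 0.47, -0.08 and 0.18. The probe that the array's design names Insr, the insulin receptor, was at -0.42, -0.63 and -0.27. A brighter probe, matched to Insr by accession but named D630014A15Rik in the design, was at -0.94 ± 0.067, -0.54 ± 0.055 and -0.45 ± 0.058, and its bilberry value became -0.02 with normexp and -0.74 with the refit.

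Across the 4 arrays the genes whose 3 ratios lay closest to those of Pparg were Pfdn6, Gas7 and Cct6b. Their Euclidean distances on the log2 scale were 0.027, 0.037 and 0.039, over 11954 genes detected on every array. Of these genes 34 lay within a distance of 0.1. Distances this small are similar to the spot error of a bright probe with 1 spot, such as 0.039 for Rxra probe 1 with bilberry. The order of these genes is therefore not resolved, and the 3 ratios share the single DMSO array.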

How the data were processed

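RNA of 3T3-L1 cells was measured on 4 arrays, 1 per condition. The authors labeled total RNA with Cy3, scanned the arrays and deposited Feature Extraction output, whose processed signal is an intensity for each spot after background subtraction. The series-wide deposited table gave the same intensity values, with a largest relative difference of 0. Spots marked by the software were left out, which left 39373 of 41174 probes with a value on all arrays. Each intensity was divided by the array's 75th percentile and converted to log2. The study's methods take this percentile over all measurements, and here it was taken over non-control spots. Spots of a probe were averaged. A probe was called past 2-fold from this ratio alone. A gene not well above background on 1 of 2 arrays was given as a bound, against the higher of its own signal and the lowest signal well above background. Replicate spots (245 probes in 10 spots) gave the errors. Coordinates are those of the files (mm8), and GRCm38.p6 was used for names, by accession for 24375 probes, and for promoter sequences of RefSeq.

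Members and lists were chosen with earlier results of these data known. Named genes are, per list and treatment, up to 3 measured genes with the largest ratio past 2-fold and up to 2 bounds, with Insr, Cebpa, Cebpb, Cebpd, Klf5, Srebf1 and the 3 genes nearest to Pparg. The alternatives were normexp with an offset of 50 and its refit (limma), quantile normalization, scaling to the median of well-detected probes, a percentile with control spots, spike-in scaling, marked spots kept, the deposited table, a 1.5-fold threshold, 1 probe a gene, and subtraction of the median ratio of probes within 15 rows and columns. The same subtraction with nearby probes well above background only was chosen after seeing the data. The scaling, averaging and calling steps were tested on simulated data with 200 planted log2 changes of 2 over 41174 probes. In each comparison with DMSO 100.0% were recovered. The planted changes were well past the 2-fold threshold and lay in probes well above background, so this checks the code only. Bounds, lists, normexp and variation between cultures were not simulated. R 4.3.3 with limma 3.58.1 was used for normexp, and Python 3.11.15 (pandas 2.3.3, numpy 2.4.6, scipy 1.17.1) with matplotlib 3.10.9 for the rest.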

Additional observations from a re-analysis of the deposited data

Results flagged for a closer look

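The dimmest Rarg probe (probe 4) had a log2 ratio to DMSO of 1.71 with bilberry and -1.23 with cyanidin, and it is listed because the treatments lie on opposite sides of DMSO past 2-fold. With 1 array per condition that difference was not tested.

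A Ppara spot that the software marked as an outlier, and that was left out above, had a signal of 14.5 on the bilberry array, and another had 158 on the delphinidin array. Both were well above background by the software's test, while the 9 kept spots of the same probe on each of these arrays and the 10 spots on the DMSO array were not. The cause of these spots was not tested.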

How the results depend on the processing

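No paired analysis was possible because each condition has 1 array, and for the same reason no replicate could be left out. The percentile with control spots, the median of well-detected probes, marked spots kept and the deposited table moved none of the 51 member ratios by more than 0.0525 on the log2 scale. Spike-in scaling gave 14 member probes past 2-fold with bilberry (78.3% of all probes) and 0 with cyanidin (2.07%), and member medians of -1.27 (bilberry), -0.0091 (delphinidin) and 0.15 (cyanidin). Normexp, whose fitted background mean was -345 on the bilberry array and -3.88 to -6.15 on the others, gave 5 member probes past 2-fold with bilberry (35.1%), 0 with cyanidin (0.695%) and a bilberry median of 0.65. Its refit (mean of -5.65) gave 0 with bilberry (5.31%) and 0 with cyanidin (0.695%). Quantile normalization (1.81% of all probes) and subtraction of nearby probes, which adjusted member probes alone, each gave 0 with cyanidin, and the latter gave medians of -0.12, -0.082 and 0.093. Restricted to nearby probes well above background, chosen after seeing the data, it gave medians of 0.089 with bilberry and -0.21 with delphinidin. With 1 probe a gene the bilberry median was 0.14. At 1.5-fold the counts were 3, 2 and 2 in the order bilberry, delphinidin and cyanidin, against 33.1%, 9.86% and 10.1% of all probes.

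For the genes of the 8 lists as 1 set, counting only those well above background on both arrays and so no bounds, bilberry had 14 of 138 past 2-fold (against 10.5% of all such genes), delphinidin 5 of 144 (3.3%) and cyanidin 3 of 142 (2.28%). Spike-in scaling gave 108 with bilberry (77.7%) and 5 with cyanidin (2.4%), normexp 27 with bilberry (25.3%) and 2 with delphinidin (1.52%), and its refit 9 (5.94%) and 2 (1.52%). Their medians of 0.18, 0.02 and 0.08 became -1.35, 0.28 and 0.32 with spike-in scaling, and the bilberry median became 0.041 with quantile normalization and -0.030 with normexp. Signals near background limit Ppara, Ppard, Rarg probes 2 to 4 and, outside the members, Nr2f1. Having 1 array per condition limits every comparison.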
